A study of Dorcoceras hygrometricum with 14 samples.

Results

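Nitrogen uptake and amino acid transport were followed in leaf explants of Boea hygrometrica (Dorcoceras hygrometricum), a desiccation-tolerant plant whose leaf pieces form new shoots in culture. The genes were chosen by the text of their annotation: a homology description or product naming nitrate or nitrite transport or reduction, the NRT1/PTR family, ammonium transporters, glutamine, asparagine or glutamate synthesis, glutamate dehydrogenase, or an amino acid permease or transporter. Descriptions with the words abscisic or auxin transporter were left out. The rule took 136 of the 24110 genes in the expression table. Of these, 105 reached 1 FPKM in at least 3 libraries and were tested, and the other 31 peaked at 2.86 FPKM or less, 21 of them below 1 FPKM in every library. FPKM is the number of sequenced fragments scaled for transcript length and library size, so levels of genes of different length can be compared.

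The explants were segments of young leaves from 1-month-old sterile seedlings, with sides of 0.5 cm, laid with the lower leaf surface on half-strength MS medium with an auxin (2,4-D) and a cytokinin (6-BA), each at 0.1 mg/L. They were sampled after 0, 5, 10 or 15 days, with 3 biological replicates per day and about 30 discs mixed in each. The labels give 16 h light and 8 h dark at 25 °C for all samples of the series. Day 0 segments are the control of every day and had no time on the medium, and explants kept without the growth regulators were not analysed here. DNA methylation came from 1 bisulfite library of young leaves of 1-month-old plants and 1 of mature leaves of 6-month-old plants, each from DNA of 5 replicates mixed. A leaf segment holds mesophyll, epidermis and veins, so fewer cells of a type and less RNA per cell cannot be told apart in these values.

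Plants take up nitrate through low-affinity transporters of the NRT1/PTR (NPF) family and high-affinity NRT2 transporters, which in Arabidopsis need the partner protein NRT3.1 (NAR2.1). Nitrate reductase in the cytosol and nitrite reductase in the chloroplast turn nitrate into ammonium, which also enters through AMT transporters. Glutamine synthetase (GS) and glutamate synthase (GOGAT) then build ammonium into amino acids. Green leaves chiefly use the chloroplast forms, which also recapture the ammonium of photorespiration, while cytosolic forms are known from veins, roots and senescing leaves. MS medium supplies both nitrate and ammonium.

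Replicate 3 stood apart from replicates 1 and 2 on every day along the second principal component (23.3% of the variance). Tested nitrogen genes were higher in replicate 3 than in the mean of replicates 1 and 2 by a median of 0.23 on the log2 scale, against 0.12 for all tested genes. The NPF family was higher by 0.40 and the ammonium transporters lower by 0.26. FPKM totals were 846672 to 970083 per library. The number of fragments behind each value is unknown. Summed leaf mesophyll markers (17 genes, none at 0 throughout) were 71860 to 102200 FPKM at day 0 and 13490 to 73950 FPKM later, the highest later value being day 10 replicate 1, so the labelled tissue carried its defining markers on all days.

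Across the time course 16 nitrogen genes were called different from day 0 at 1 or more days, 12 of them higher and 4 lower (15.2% of the 105 tested). Of all genes tested, 11.7% were called at 1 or more days, 5.82% higher and 5.85% lower. A gene was called when limma's adjusted p was under 0.05 and the log2 difference of FPKM + 1 was at least 1 in size. Higher genes were 2 NRT3.1-like partners, 2 minor nitrate reductase genes, 4 NPF transporters, 1 GS gene and 3 amino acid transporters. The lower genes were a chloroplast GS, the ferredoxin-dependent GOGAT, an asparagine synthetase and a neutral amino acid transporter. In 6 genes the call was made at all 3 days, 4 higher and 2 lower.

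At day 5, 9 of the 105 tested genes were called (8.57%), 5 higher and 4 lower, beside 6.61% of all tested genes (3.13% higher and 3.48% lower). At day 10 the count was 10 (9.52%), 7 higher and 3 lower, beside 4.49% of all (2.24% higher and 2.26% lower). At day 15 it was 14 (13.3%), 11 higher and 3 lower, beside 9.02% of all (4.63% higher and 4.38% lower). The median log2 difference from day 0 was 0.09, 0.19 and 0.27 over the tested nitrogen genes at days 5, 10 and 15, and 0.14, 0.15 and 0.21 over all genes tested. These 3 comparisons use the same day 0 libraries.

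The F test over the 3 comparisons passed for 12 of the nitrogen genes (11.4%), beside 8.82% of all genes. No nitrogen gene was called between days 5 and 10 or between days 10 and 15, where limma called 0% of all tested genes too. At an unadjusted limma p under 0.05 there were 5 of the 105 tested nitrogen genes between days 5 and 10, beside 3.12% of all tested genes. Between days 10 and 15 there were 3 of the 105, beside 3.25% of all tested genes. Scaling by median ratios lowered the median of all genes by about 0.14, 0.15 and 0.19 at days 5, 10 and 15. It changed the split of calls to 5 higher and 4 lower at day 10 and to 8 higher and 4 lower at day 15. Of 33 calls, 19 were lost when 1 library was left out, most often a day 0 library, as given beside each gene.

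**Figure D1:**
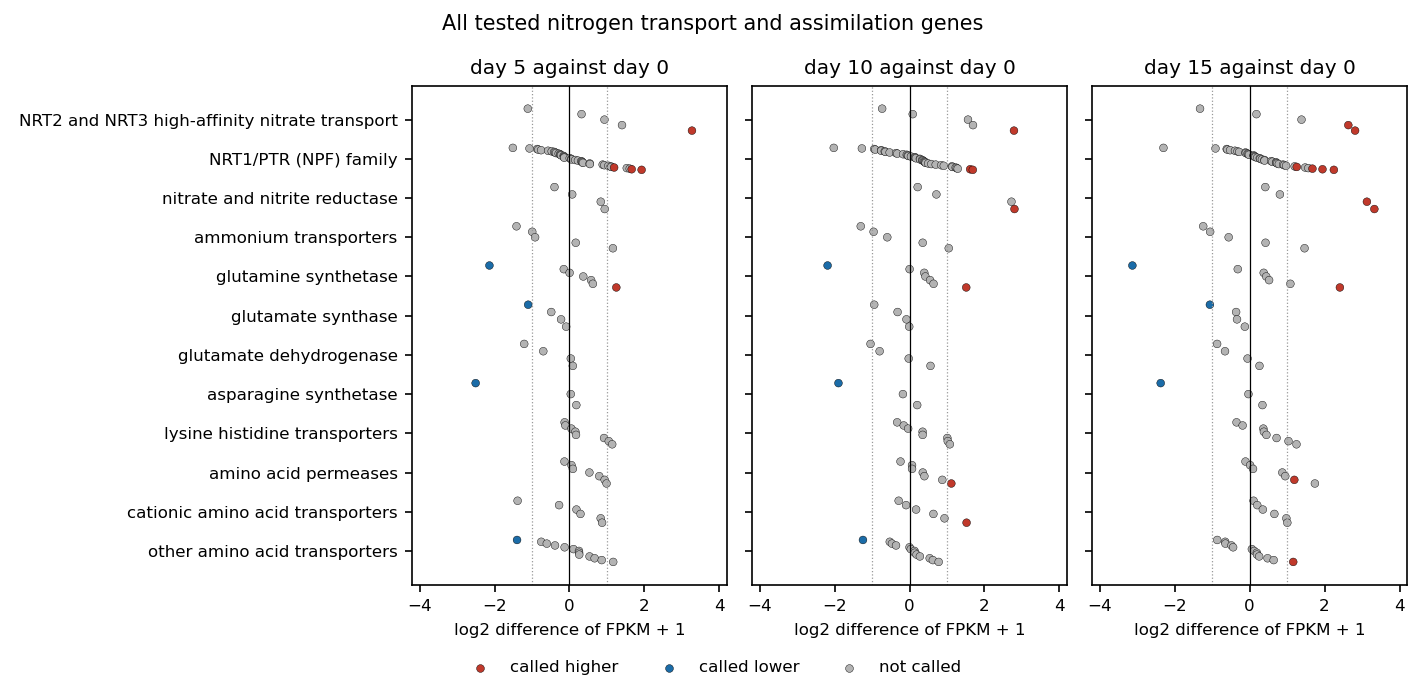
Log2 difference of FPKM + 1 from day 0 (horizontal axis) of all 105 tested nitrogen genes, 1 point per gene, grouped by role and ordered within a role by size. Red points were called higher and blue points lower, and dotted lines mark a difference of 1. The calls farthest from 0 are those of nitrate reductase (3.33 for F511_10494), NRT3.1-like F511_28104 (3.27) and glutamine synthetase (-3.13 for F511_04119).

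High-affinity nitrate transport showed a rise in transcripts of the partner protein, with little transcript signal for the transporters themselves. The NRT3.1-like gene F511_28104 was listed at 16.5, 45.0 and 39.1 FPKM in replicates 1, 2 and 3 at day 0. Its values were 319, 196 and 457 at day 5, 187, 202 and 277 at day 10, and 159, 261 and 268 at day 15. Every cultured library lay above every day 0 library. The mean was 9.67, 6.62 and 6.84 times that of day 0 at days 5, 10 and 15. F511_28104 rose by 3.27 (SE 0.40, adjusted p = 0.0022), 2.79 (SE 0.40, adjusted p = 0.0052) and 2.82 (SE 0.40, adjusted p = 0.0027) on the log2 scale, and all 3 calls held under each of the 22 alternatives.

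A second NRT3.1-like gene, F511_00660, moved later and at a lower level. It had 1.56, 2.46 and 1.29 FPKM at day 0, 6.96, 2.44 and 4.16 at day 5, 2.94, 12.5 and 11.9 at day 10, and 18.5, 20.5 and 10.6 at day 15. Day 5 overlapped day 0, while days 10 and 15 lay wholly above it. The difference passed at day 15 (2.63, SE 0.49, adjusted p = 0.0078), and at day 10 it was 1.69 with adjusted p = 0.056. The third, F511_36941, stood at 13.3, 17.3 and 14.9 FPKM at day 0 and at 20.1 to 87.5 later. It lay above day 0 in all 9 cultured libraries, but its adjusted p was 0.062, 0.054 and 0.054.

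The NRT2 transporters, which carry nitrate together with NRT3.1 in Arabidopsis, number 8 in the table. Only 2 passed the filter, and the other 6 peaked at 1.78 FPKM. NRT2.3-like F511_22747 was listed at 2.59, 3.80 and 20.1 FPKM before culture and at 0.64 to 9.17 FPKM during it. In each day its highest value was that of replicate 3, and no difference from day 0 passed (adjusted p = 0.41, 0.61 and 0.29). NRT2.5 (F511_09498) stayed between 0.32 and 2.06 FPKM. Summed over the 11 NRT2 and NRT3 genes, FPKM was 60.7 ± 22.5 at day 0 (mean ± SD, n = 3), 383 ± 169 at day 5, 285 ± 68.7 at day 10 and 294 ± 73.7 at day 15, a sum made up mainly of F511_28104. Root markers, a list of 73 text-matched genes that includes scarecrow-like genes, summed to 1074 to 1563 FPKM at day 0 and 961 to 1549 later. Of the 60 tested, 5, 3 and 3 were called higher and 3, 2 and 2 lower at days 5, 10 and 15. Their part in the result was not tested.

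**Figure D2:**
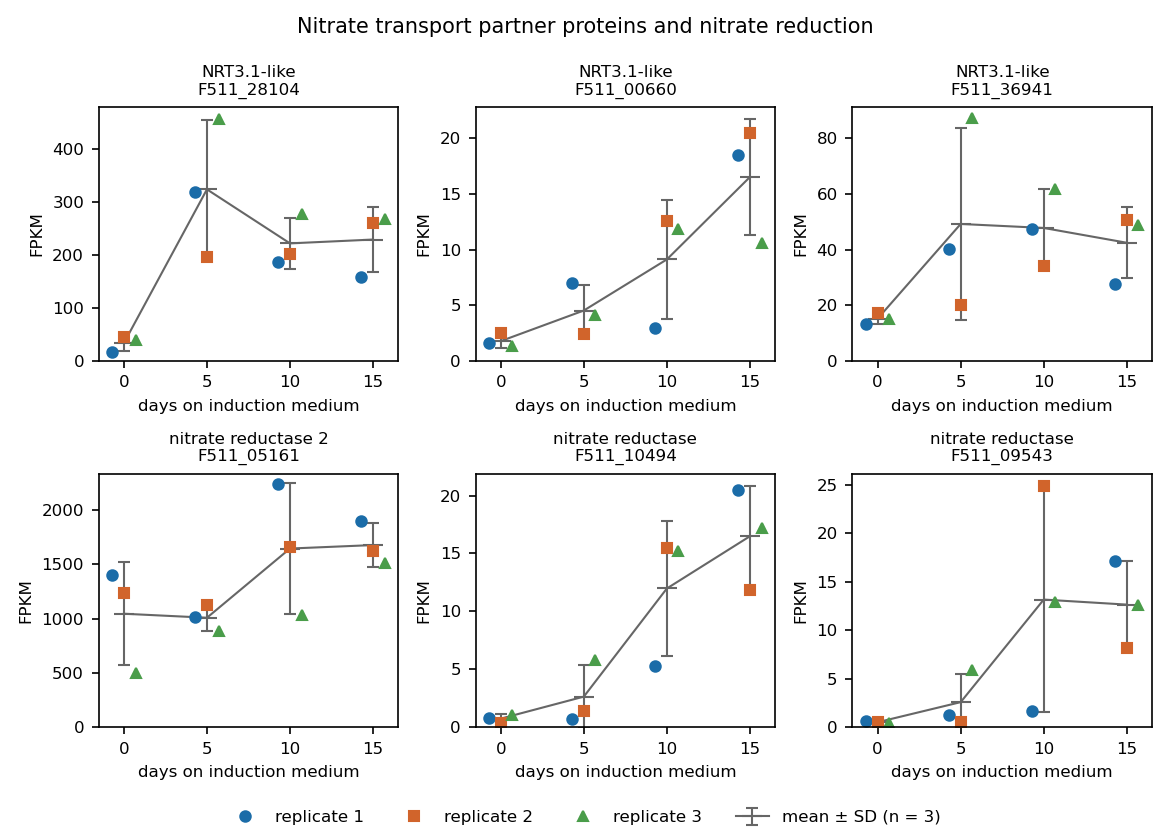
FPKM (vertical axis) by day of culture of the 3 NRT3.1-like genes and the 3 nitrate reductase genes. Each symbol is 1 library and the line joins the means with SD (n = 3). F511_28104 sits at 16.5 to 45.0 at day 0 and at 159 to 457 later, and F511_10494 reaches 5.24 to 20.5 at days 10 and 15 from at most 1.08 at day 0.

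Nitrate reductase, which makes nitrite from nitrate, was carried by a single gene. F511_05161 (nitrate reductase 2) had the highest mean level of all 136 genes. It stood at 1399, 1234 and 502 FPKM in replicates 1, 2 and 3 at day 0, 1010.3, 1128 and 885 at day 5, 2240.25, 1663 and 1034 at day 10 and 1898, 1626 and 1509.8 at day 15. Replicate 3 was the lowest library on each day, and the 3 libraries of day 15 lay above those of day 0. Its differences from day 0 did not pass (0.07, 0.72 and 0.81 with adjusted p = 0.93, 0.26 and 0.17).

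A pair of other nitrate reductase genes came up from near 0. F511_10494 was listed at 0.78, 0.33 and 1.08 FPKM at day 0, 0.74, 1.37 and 5.78 at day 5, 5.24, 15.4 and 15.2 at day 10, and 20.5, 11.8 and 17.2 at day 15. Day 5 overlapped day 0 and the last 2 days lay above it. It rose by 2.80 at day 10 (SE 0.52, adjusted p = 0.013) and 3.33 at day 15 (SE 0.52, adjusted p = 0.0039). The day 10 call was lost without day 0 replicate 1 or 2 or day 10 replicate 2 (adjusted p = 0.055 to 0.059) and on the 6 libraries compared (0.059). F511_09543 went from 0.64, 0.48 and 0.39 FPKM at day 0 to 1.67, 24.9 and 12.9 at day 10 and 17.2, 8.14 and 12.7 at day 15. Its call was at day 15 (3.13, SE 0.76, adjusted p = 0.020), with adjusted p = 0.052 at day 10. Leaving out replicate 1 or 2 of day 0 or replicate 1 or 3 of day 15 ended it (adjusted p = 0.057 to 0.060), as did the fit on replicates 1 and 2 only (0.069). F511_05161 held 97.4% to 99.9% of the summed nitrate reductase FPKM in the 12 libraries.

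Nitrite reductase (F511_38268), which completes the reduction to ammonium in the chloroplast, stayed at 183 to 442 FPKM. Its libraries were 325, 350 and 255 at day 0, 195, 183 and 352 at day 5, 352, 359 and 361 at day 10 and 409, 384 and 442 at day 15. Days 10 and 15 lay just above day 0, but no difference passed (adjusted p = 0.29, 0.60 and 0.24).

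Chloroplast GS and a GS of the nodule isozyme type moved in opposite directions. F511_04119, a GS of the chloroplast leaf type, fell from 728, 599 and 607 FPKM at day 0 to 175, 181 and 97.1 at day 5, 296, 129 and 72.0 at day 10, and 140, 64.2 and 42.5 at day 15. No cultured library came near the day 0 range, and replicate 3 was the lowest library on each cultured day. The mean of day 0 was 4.27, 3.89 and 7.85 times that of days 5, 10 and 15. The log2 difference was -2.14 (SE 0.51, adjusted p = 0.024), -2.19 (SE 0.51, adjusted p = 0.030) and -3.13 (SE 0.51, adjusted p = 0.0049). At day 5 the call was lost without day 0 replicate 1 or 2 or any 1 of the day 5 libraries (adjusted p = 0.063 to 0.086). At day 10 it was lost without day 0 replicate 1 or 2 or day 10 replicate 2 or 3 (0.075 to 0.106), on replicates 1 and 2 only (0.054) and on the 6 libraries compared (0.087). The day 15 call held in every fit.

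The other chloroplast-type GS, F511_44208, did not follow it. It stood at 614, 509 and 409.7 FPKM at day 0, 404, 474 and 486 at day 5, 561, 485 and 472 at day 10, and 510.2, 354 and 367 at day 15. All days overlapped, and the differences were -0.15, 0.00 and -0.32 (adjusted p = 0.68, 1.0 and 0.30). How the counting treated reads that match more than one GS gene is not given in the sources used here, and their part was not tested.

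F511_39523, described as a nodule isozyme-like GS, rose. Its libraries were 55.3, 50.7 and 72.5 FPKM at day 0, 157, 112 and 159 at day 5, 147, 169.8 and 196 at day 10 and 236, 419 and 319.96 at day 15. Each cultured library was above all of day 0, and those of day 15 were above all earlier ones. The rise was 1.25 (SE 0.24, adjusted p = 0.011), 1.51 (SE 0.24, adjusted p = 0.0073) and 2.41 (SE 0.24, adjusted p = 5.4e-04), the smallest adjusted p of any nitrogen gene at day 15, and the calls held under each alternative. Among the remaining GS genes, cytosolic F511_27052 lay at 114 to 135 FPKM at day 0 and 134 to 202 later, with differences of 0.62, 0.39 and 0.52 that stayed under the fold limit (adjusted p = 0.028, 0.14 and 0.043). Cytosolic F511_10582 differed by 1.09 at day 15 with adjusted p = 0.077.

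The mix of GS transcripts was described by shares, with no test. The 2 chloroplast-type genes made up 81.2%, 79.4% and 72.0% of summed GS FPKM in the day 0 libraries. Their share was 52.4%, 58.3% and 49.1% at day 5, 66.0%, 49.7% and 48.3% at day 10 and 49.2%, 31.1% and 37.1% at day 15. All 9 cultured libraries lay below day 0, and day 10 replicate 1, the library with the highest mesophyll marker sum after day 0, had the highest share of them. The GS total itself was 1487 ± 143 FPKM at day 0 and 1140 ± 44.0, 1220 ± 88.4 and 1257 ± 133 at days 5, 10 and 15 (mean ± SD, n = 3). Of 16 tested leaf mesophyll markers, 8, 2 and 7 were called lower at the 3 days and 0 higher. Their part in the change of the chloroplast isozyme was not tested.

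**Figure D3:**
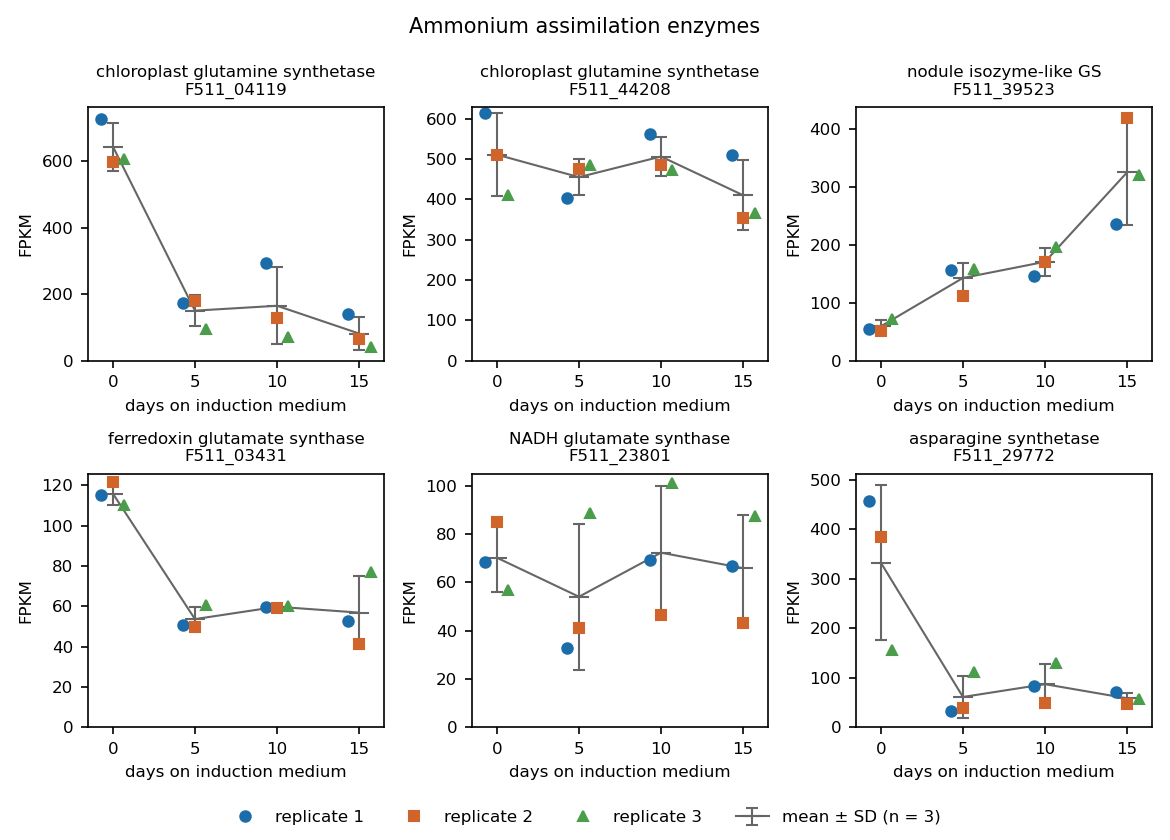
FPKM (vertical axis) by day of culture of 3 GS genes, both GOGAT enzymes and the main asparagine synthetase. Each symbol is 1 library and the line joins the means with SD (n = 3). F511_04119, F511_03431 and F511_29772 lie below day 0 in all 9 cultured libraries and F511_39523 lies above it, while F511_44208 and F511_23801 overlap day 0.

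Ferredoxin-dependent GOGAT (F511_03431), which works with chloroplast GS in leaves, fell as well. It had 115, 122 and 110.5 FPKM at day 0, 50.5, 49.7 and 60.6 at day 5, 59.8, 59.2 and 60.3 at day 10 and 52.5, 41.3 and 76.8 at day 15. The cultured values lay at about the same level on all 3 days and never reached day 0. The difference was -1.10 at day 5 (SE 0.20, adjusted p = 0.0082), -0.94 at day 10, short of the fold limit (adjusted p = 0.021), and -1.06 at day 15 (SE 0.20, adjusted p = 0.0075). Without day 15 replicate 2 the day 15 difference was -0.86 and the call was lost. NADH-dependent GOGAT (F511_23801), the form known from roots and young tissue, stayed within 32.7 to 101 FPKM and overlapped day 0 on each day (adjusted p = 0.46, 0.99 and 0.86). On replicates 1 and 2 only, it was called lower at day 5 (-1.045, adjusted p = 0.048). The text rule also took 2 folylpolyglutamate synthases, F511_25401 and F511_42426, enzymes of folate metabolism that are no part of nitrogen assimilation. They were at 8.40 to 30.6 FPKM with no call.

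Asparagine synthetase F511_29772, which moves the amide group of glutamine onto aspartate, was one of the genes farthest below day 0. Its day 0 libraries held 456, 384 and 156 FPKM, replicate 3 being the lowest. Later values were 32.9, 38.9 and 111 at day 5, 82.3, 48.0 and 129.8 at day 10 and 69.9, 46.8 and 57.7 at day 15. No cultured library reached the lowest of day 0. The difference was -2.50 (SE 0.52, adjusted p = 0.015), -1.90 (SE 0.52, adjusted p = 0.0498) and -2.37 (SE 0.52, adjusted p = 0.014). Leaving out replicate 1 or 2 of either day ended the day 5 call (adjusted p = 0.058 to 0.063). The day 15 call ended without day 0 replicate 1 or 2 or day 15 replicate 2 (0.051 to 0.059). The day 10 call was lost without any 1 of 9 libraries, namely replicates 1 and 2 of days 0, 5, 10 and 15 and day 15 replicate 3 (0.059 to 0.175), and on the 6 libraries compared (0.113). It was also lost with a pseudocount of 0.1 (0.052), without the filter (0.076) and without trend and robust fitting (0.063). On replicates 1 and 2 only, the difference was -3.51, -2.71 and -2.85 and all 3 calls held. The second asparagine synthetase, F511_07313, stayed at 27.6 to 42.9 FPKM, and the domain-containing protein F511_03176 at 7.28 to 12.

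Ammonium transporters and the main glutamate dehydrogenase were not called, and replicate 3 ran against the other replicates in several. AMT1;1-like F511_27545, of the family that takes up ammonium at the plasma membrane, had 389, 368 and 184 FPKM in replicates 1, 2 and 3 at day 0. It had 76.2, 70.5 and 254 at day 5, 53.8, 128 and 251 at day 10 and 91.6, 173 and 125 at day 15. Against the day 0 libraries of the same number, replicates 1 and 2 were lower on each cultured day. Replicate 3 was higher at days 5 and 10. The numbers name the libraries only, so no explant is followed over time. The differences were -1.41, -1.30 and -1.24 (adjusted p = 0.15, 0.20 and 0.17). In the fit on replicates 1 and 2 only, the gene passed as lower at all 3 days (-2.35, -2.17 and -1.58, adjusted p = 0.015, 0.023 and 0.046).

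AMT2 (F511_29036) had the same layout. Its libraries were 182, 140.3 and 71.9 FPKM at day 0, 52.9, 44.3 and 97.2 at day 5, 43.5, 50.8 and 111 at day 10 and 42.4, 72.5 and 65.4 at day 15. Of the day 5 and day 10 libraries, only those of replicate 3 were above the day 0 library of the same number. Adjusted p was 0.16, 0.19 and 0.12 over all libraries, and 0.0094, 0.010 and 0.014 on replicates 1 and 2 only, with differences of -1.71, -1.75 and -1.51. AMT1;2 (F511_15399) was the steady member, at 119 to 144 FPKM at day 0 and 132 to 212 later. AMT3-like F511_21767 stood at 3.97 to 12.9 at day 0 and 9.73 to 40.3 later (adjusted p = 0.13, 0.19 and 0.056). The second AMT2 gene, F511_42308, was at 3.54 FPKM or below.

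Glutamate dehydrogenase A (F511_10423), which can release ammonium from glutamate in mitochondria, had 169.8, 167 and 43.8 FPKM at day 0 and 29.0 to 137 later. Its adjusted p was 0.52, 0.47 and 0.51. Replicate 3 was the lowest library at day 0 and the highest on each cultured day, and on replicates 1 and 2 only the day 5 difference was -1.86 (adjusted p = 0.048). The NADP-specific form (F511_18650) was nearly flat, at 20.2 to 25.3 FPKM in all 12 libraries. Glutamate dehydrogenase B (F511_12176) had 8.74 FPKM in day 0 replicate 3 and at most 1.97 elsewhere. The A-like gene F511_19873 reached 3.02.

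The NPF family, which carries nitrate and, depending on the member, nitrite, peptides, hormones or glucosinolates, had 55 members, of which 39 were tested. At days 5, 10 and 15, 3, 2 and 4 were called higher and none lower, and the median log2 difference was 0.05, 0.28 and 0.29. Among all tested genes 3.13%, 2.24% and 4.63% were called higher at these days. The calls lay in subfamilies 2 (6 tested) and 3 (3 tested). Subfamilies 4 and 5, with 10 tested genes each, and subfamilies 1, 6, 7 and 8 had none in the fit over all libraries without a replicate block. With the replicate number as a block, NPF7.3-like F511_19067 was called higher at all 3 days (adjusted p = 0.012, 0.031 and 0.012). NPF1.2 BGI_novel_G001161 was called higher at day 5 in that fit (adjusted p = 0.015). On replicates 1 and 2 only, subfamilies 1 and 4 had calls too. These were NPF1.2 BGI_novel_G001161 at day 5 (1.91, adjusted p = 0.0093), NPF4.4 F511_05994 at days 5 and 15 (1.40 and 1.67, adjusted p = 0.027 and 0.016) and NPF4.5-like F511_11805 at days 5 and 10 (1.25 and 1.55, adjusted p = 0.031 and 0.020), all higher.

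NPF3.1 (F511_35672), described as a nitrite transporter and known in Arabidopsis to carry nitrite, nitrate and gibberellin, had 20.5, 16.6 and 45.5 FPKM at day 0. Its libraries were at 74.7, 73.2 and 97.8 at day 5, 74.6, 70.2 and 93.5 at day 10, and 83.0, 64.9 and 103 at day 15. It reached its new level by day 5 and stayed there, with replicate 3 highest on each day. The rise was 1.66 (SE 0.32, adjusted p = 0.012), 1.62 (SE 0.32, adjusted p = 0.017) and 1.68 (SE 0.32, adjusted p = 0.0086). Without day 0 replicate 1 the day 5 call was lost (adjusted p = 0.051). The day 10 call was lost without day 0 replicate 1 or 2 or day 10 replicate 2 (0.050 to 0.076) and on the 6 libraries compared (0.090). Another NPF3.1 gene, F511_40799, had 6.79 to 19.95 FPKM at day 0 and 22.5 to 32.2 in all cultured libraries but day 15 replicate 3 at 6.91 (adjusted p = 0.12, 0.13 and 0.56). NPF3.1-like F511_32187 lay the other way, at 19.1 to 49.8 at day 0 and 1.63 to 24.1 later (adjusted p = 0.24, 0.14 and 0.073).

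NPF2.7-like F511_30764, whose Arabidopsis namesake releases nitrate from root cells, had 8.09, 8.43 and 25.6 FPKM at day 0. Later it held 38.6, 49.0 and 62.1 at day 5, 28.1, 39.5 and 64.0 at day 10 and 38.3, 46.1 and 69.2 at day 15. The groups did not overlap, and within each day replicate 3 was the highest. It rose by 1.93 (SE 0.43, adjusted p = 0.019), 1.69 (SE 0.43, adjusted p = 0.038) and 1.95 (SE 0.43, adjusted p = 0.014). Leaving out day 0 replicate 1 or 2 ended all 3 calls. They were also lost without day 5 replicate 2 or 3 at day 5, without replicate 1 or 2 of day 5, replicate 2 or 3 of day 10 or replicate 2 of day 15 at day 10, and without day 15 replicate 3 at day 15 (adjusted p = 0.050 to 0.144 over all these). The fit on the 6 libraries compared (0.125) and the one without the filter (0.061) ended the day 10 call, while replicates 1 and 2 only kept all 3 (0.0020, 0.0039 and 0.0026). Another NPF2.7-like gene, BGI_novel_G000806, did not rise, with 17.8 to 39.1 FPKM at day 0, 5.63 to 32.3 later and no call.

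A pair of NPF2.11-like genes, F511_22339 and F511_22340, lies 4357 bases apart on one scaffold. The Arabidopsis namesake carries glucosinolates. F511_22339 had 39.9, 64.1 and 28.0 FPKM at day 0, 112, 108 and 73.6 at day 5, 50.4, 93.8 and 91.4 at day 10 and 72.8, 121 and 117 at day 15. Days 5 and 15 lay above day 0 and day 10 overlapped it. The calls were at day 5 (1.19, SE 0.34, adjusted p = 0.045) and day 15 (1.26, SE 0.34, adjusted p = 0.031). The day 5 call ended on leaving out replicate 1 or 3 of day 0, replicate 1 or 2 of day 5, day 10 replicate 2 or replicate 2 or 3 of day 15 (0.053 to 0.138). At day 15 it was lost without replicate 1 or 3 of day 0 or replicate 2 or 3 of day 15 (0.078 to 0.098). Rescaling (0.087 and 0.072), the 6 libraries compared (0.065 and 0.058) and replicates 1 and 2 only (0.089 and 0.147) ended both calls, and at day 5 so did leaving out the filter (0.069) and fitting without trend and robust settings (0.058).

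Its neighbour F511_22340 climbed later, from 11.7, 10.2 and 5.87 FPKM at day 0 to 10.7, 14.1 and 34.0 at day 5, 8.79, 20.2 and 49.7 at day 10 and 30.8, 51.5 and 62.0 at day 15. Only day 15 cleared the day 0 range. There the rise was 2.25 (SE 0.57, adjusted p = 0.024), a call lost without any 1 of the day 0 libraries or day 15 replicate 2 or 3 (0.057 to 0.078). The related NPF2.10-like F511_02251 was at 43.3 to 142 FPKM on day 0 and 40.1 to 101 later with no call.

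NPF6.3-like F511_32296, named after the Arabidopsis nitrate sensor and transporter NRT1.1, had the highest mean level of the family. It was listed at 117, 51.8 and 218 FPKM at day 0, 51.7, 93.0 and 206 at day 5, 91.3, 101 and 199.55 at day 10 and 169, 101 and 347 at day 15. Replicate 3 was highest on each day, and all days overlapped (adjusted p = 0.92, 0.92 and 0.46). NPF7.3-like F511_19067, whose Arabidopsis namesake loads nitrate into the xylem, was at 2.31 to 6.28 at day 0 and 3.77 to 21.3 later (adjusted p = 0.076, 0.16 and 0.081). Of the other genes, NPF1.2 F511_06205 had a difference of 0.89 at day 15 with adjusted p = 0.045, short of the fold limit.

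**Figure D4:**
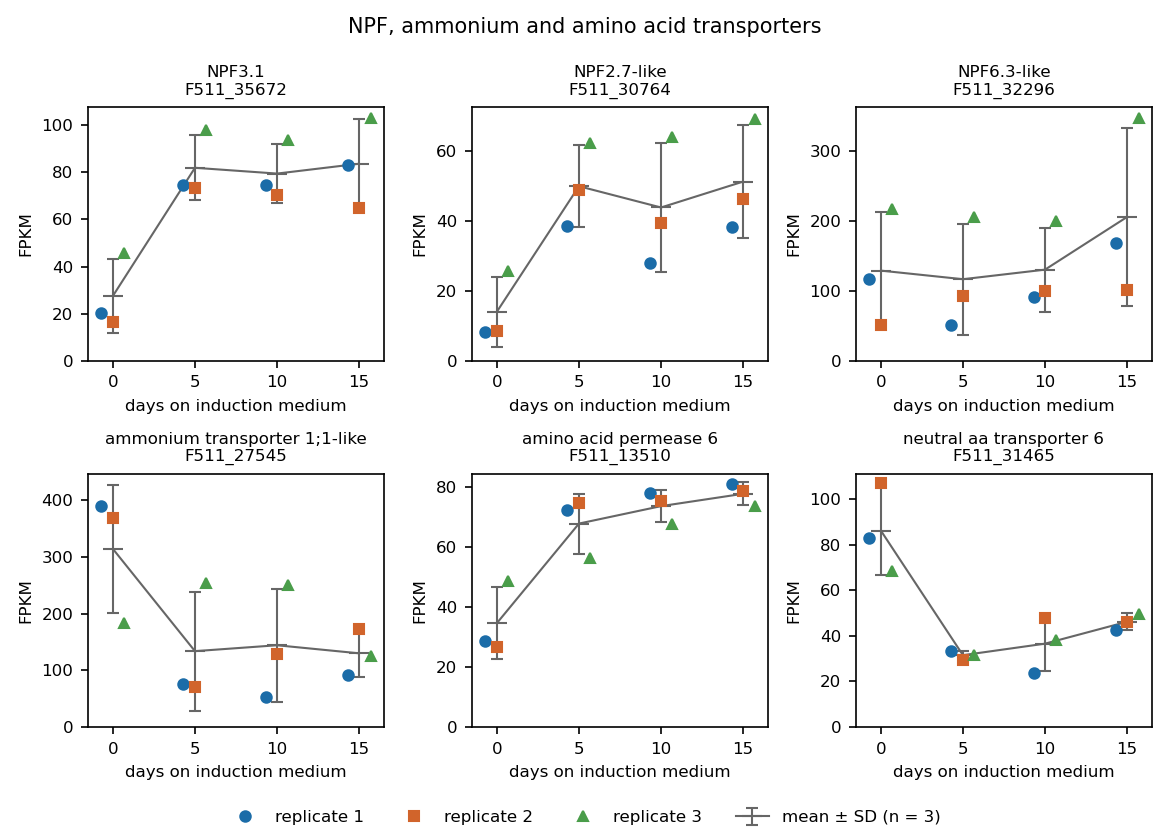
FPKM (vertical axis) by day of culture of 3 NPF transporters, an ammonium transporter and 2 amino acid transporters. Each symbol is 1 library and the line joins the means with SD (n = 3). NPF3.1 F511_35672 and NPF2.7-like F511_30764 lie above day 0 in all cultured libraries, replicate 3 of F511_27545 runs against replicates 1 and 2, and F511_31465 lies below day 0 throughout.

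Amino acid transporters outside the NPF family comprised 10 lysine histidine transporters (LHT), 9 amino acid permeases (AAP), 6 cationic amino acid transporters (CAT) and 14 others, of which 8, 7, 6 and 13 were tested. Across them, 3 genes were called higher and 1 lower at 1 or more days (11.8% of the 34 tested), beside 11.7% of all tested genes. Amino acid permease 6 (F511_13510), of a family that loads amino acids into cells and the phloem, had 28.9, 26.6 and 48.7 FPKM at day 0, 72.5, 74.9 and 56.5 at day 5, 78.0, 75.4 and 67.9 at day 10 and 81.1, 78.9 and 73.7 at day 15. All cultured libraries lay above day 0, with replicate 3 highest at day 0 and lowest afterwards. The difference was 0.99 at day 5 (adjusted p = 0.016), 1.12 at day 10 (SE 0.21, adjusted p = 0.014) and 1.19 at day 15 (SE 0.21, adjusted p = 0.0064). The day 10 call was lost without day 0 replicate 1 or 2 or day 10 replicate 2 (0.054 to 0.068) and on the 6 libraries compared (0.087). Rescaling brought both differences under 1 (0.95 and 0.98), which ended both calls.

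AAP3 (F511_05034) had the highest mean of the permeases, at 83.2 to 125 FPKM at day 0 and 73.4 to 135 later, with no difference that passed (adjusted p = 0.78, 0.91 and 0.98). Summed permease FPKM was 158 to 182 at day 0, and 188 to 231, 196 to 249 and 238 to 261 at days 5, 10 and 15, above day 0 in every cultured library. Phloem markers (8 genes) summed to 169.7 to 223 FPKM at day 0 and 218 to 429 later, with 1 of 8 called higher at each day. Their part in the permease values was not tested.

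Sodium-coupled neutral amino acid transporter 6 (F511_31465), named after a family of animal carriers, fell. It had 83.0, 107 and 68.3 FPKM at day 0, 33.6, 29.5 and 31.5 at day 5, 23.9, 47.6 and 38.2 at day 10 and 42.4, 46.3 and 49.8 at day 15. The values were lowest at days 5 and 10 and stayed below day 0 in all 9 cultured libraries. The difference was -1.40 (SE 0.24, adjusted p = 0.0069), -1.24 (SE 0.24, adjusted p = 0.014) and, under the fold limit, -0.86 (adjusted p = 0.031). The day 10 call ended on leaving out day 0 replicate 1 or 2 (0.058 and 0.060) or day 10 replicate 1, where the difference was -0.97, and on the 6 libraries compared (0.094).

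F511_20533, whose product is a putative sodium-coupled neutral amino acid transporter, went the other way. Its libraries were 59.3, 64.5 and 84.2 FPKM at day 0, 112, 139 and 126 at day 5, 116, 114 and 124 at day 10, and 139, 148 and 181 at day 15. No cultured library overlapped day 0. At days 5 and 10 the difference was 0.86 and 0.78 (adjusted p = 0.012 and 0.023), and at day 15 it passed the fold limit at 1.16 (SE 0.17, adjusted p = 0.0027). Rescaling brought that to 0.95 and ended the call.

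CAT7 (F511_22709), of the cationic amino acid transporters, was called at day 10 alone (1.52, SE 0.39, adjusted p = 0.040). It had 3.44, 3.54 and 6.04 FPKM at day 0, 6.16, 7.79 and 11.8 at day 5, 25.6, 9.01 and 11.6 at day 10 and 13.8, 7.13 and 8.06 at day 15. Day 10 replicate 1 was far above the others of that day, and without it the difference was 1.11 (adjusted p = 0.085). The call was also lost without replicate 1 or 2 of day 0, replicate 1 or 2 of day 5, replicate 2 or 3 of day 10 or replicate 2 of day 15 (0.053 to 0.136), with rescaling (0.068), on the 6 libraries compared (0.115), on replicates 1 and 2 only (0.052), with a pseudocount of 5 (0.051) and without the filter (0.061). The vacuolar CAT2 (F511_10085) had the highest mean of this role, at 40.2 to 58.2 at day 0 and 42.2 to 107 later. CAT5, CAT8, CAT9 and a CAT1-like gene (F511_07897, F511_05844, F511_15359 and F511_09226) were at 18.8 FPKM or below with no call.

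LHT1-like genes, which in Arabidopsis take amino acids up from the soil and the leaf apoplast, lie side by side. F511_18241, F511_18242 and F511_18243 follow each other on one scaffold with gaps of 2413 and 2810 bases. F511_18243 had the highest mean, with 38.04, 53.5 and 18.3 FPKM at day 0, 76.7, 29.7 and 151 at day 5, 39.2, 79.5 and 102 at day 10 and 35.1, 66.3 and 74.4 at day 15. Its days overlapped (adjusted p = 0.27, 0.31 and 0.43). F511_18242 and F511_18241 were above day 0 in all cultured libraries, at 4.50 to 7.64 against 8.21 to 27.6 FPKM and at 0.63 to 0.80 against 0.90 to 4.40 FPKM, but did not pass (smallest adjusted p = 0.074 and 0.12). In all 3, day 5 replicate 3 was the highest library and day 5 replicate 2 the lowest of day 5. Whether reads were shared between these neighbours was not tested. In all, 16 genes lie within 20 kb of another of the same role, 9 such neighbouring pairs.

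Genes of linked pathways were read from 9 text lists outside the 136. The lists took 146 genes, of which 19 are other proteins (plastocyanin-, mavicyanin-, catenin- and chaperonin-like among them) whose names hold the letters of a searched regulator, NIN-like. Without these, a choice made after seeing the data, 127 genes remained and 96 were tested. The 19 genes left out, 15 of them tested, held 1 higher and 1 lower call at each of days 5, 10 and 15. Of those 6 calls, 5 held under every alternative. At days 5, 10 and 15, 9, 7 and 13 of the 96 were called higher and 0, 2 and 2 lower, beside the shares of all genes given above. The other lists were not screened in this way, and a homeobox-leucine zipper protein (F511_00030) is among the genes called higher at day 5. Molybdate transporter 1 (F511_00443), which brings in the metal of the cofactor that nitrate reductase needs, had 7.73, 3.01 and 7.33 FPKM at day 0, 38.02, 38.3 and 62.8 at day 5, 82.4, 83.1 and 62.7 at day 10, and 94.4, 35.8 and 38.1 at day 15. All cultured libraries lay well above day 0. It rose by 2.80, 3.53 and 2.96 (SE 0.40, adjusted p = 0.0042, 0.0026 and 0.0021) and was the 1 called among 8 cofactor genes.

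Of 15 tested genes described as NLP, TGA1, TGA4 or LBD37 and LBD38 factors, families with members that act in the nitrate response of Arabidopsis, 2, 2 and 3 were called higher and 0 lower at days 5, 10 and 15. TGA1-like F511_12856, whose Arabidopsis namesake acts in the nitrate response of roots and in defence, had 229.9, 315 and 149 FPKM at day 0, 613, 719 and 733 at day 5, 369.9 to 532 at day 10 and 395 to 503 at day 15. Every cultured library lay above day 0. The day 5 rise of 1.63 (SE 0.26, adjusted p = 0.0057) held under each alternative. The differences of 1.07 and 1.01 at days 10 and 15 passed (adjusted p = 0.032 and 0.024) but were lost on leaving out replicate 1 or 3 of day 0, any library of the day compared or, at day 10, day 5 replicate 2 (0.050 to 0.098). They were also lost with rescaling (0.077 and 0.083), on the 6 libraries compared (0.127 and 0.070) and on replicates 1 and 2 only (0.116 and 0.092). At day 15 the difference with a pseudocount of 5 was 0.99. TGA1-like F511_30011 was called higher at all 3 days (1.10, 1.16 and 1.13, SE 0.29, adjusted p = 0.032, 0.034 and 0.024). Each of these calls was lost without day 0 replicate 2 (0.074 to 0.106), under several other leave-outs and on the 6 libraries compared (0.064, 0.118 and 0.077).

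LBD37-like F511_31890, named after an Arabidopsis gene that responds to nitrogen and represses nitrate genes, had 35.0 to 54.7 FPKM at day 0 and 74.7 to 185 at day 15 (1.55, SE 0.41, adjusted p = 0.028). That call was lost without replicate 1 or 3 of day 0 or replicate 1 or 2 of day 15 (0.063 to 0.097) and with rescaling (0.063).

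Among GLUTAMINE DUMPER and WAT1-related genes 1, 0 and 4 of 18 tested were called higher. The list includes GLUTAMINE DUMPER genes, which drive amino acid export when overexpressed in Arabidopsis. F511_41140 went from 13.8, 15.3 and 45.4 FPKM at day 0 to 105, 69.9 and 62.2 at day 15 (1.80, SE 0.38, adjusted p = 0.012). Leaving out day 0 replicate 1 (0.052) or fitting the 6 libraries compared (0.050) ended this call. F511_17486 was at 0.91 FPKM or below at day 0 and at 3.89 to 8.46 at day 5 (2.21, SE 0.60, adjusted p = 0.037), a call lost without replicate 1 or 2 of either day (0.084 to 0.130), on replicates 1 and 2 only (0.065), with a pseudocount of 5 (0.068) and without the filter (0.056). Its day 15 call (1.98, SE 0.60, adjusted p = 0.045) was lost in 14 of the 22 alternatives, with adjusted p up to 0.151.

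GABA transporter 1-like F511_13330 and the anion channel SLAH4-like F511_08655 were called higher at all 3 days. F511_13330 had 6.98, 16.9 and 9.94 FPKM at day 0 and 19.9 to 49.2 later, without overlap. Its day 15 rise of 1.68 (SE 0.33, adjusted p = 0.0098) held in every fit, while the day 5 call was lost without day 0 replicate 1 (0.053) and on replicates 1 and 2 only (0.065). Its call at day 10 was lost without replicate 1 or 3 of day 0, day 5 replicate 1, replicate 2 or 3 of day 10 or day 15 replicate 2 (0.051 to 0.131), on the 6 libraries compared (0.110), on replicates 1 and 2 only (0.120) and without the filter (0.054). F511_08655 went from 2.34, 3.23 and 2.85 FPKM before culture to 20.1, 24.4 and 27.1 at day 5 (2.703, SE 0.49, adjusted p = 0.0095, held in every fit). At day 15 it had 7.33, 5.33 and 31.4 FPKM, replicate 3 standing far above the others. That call was lost on leaving out any library of day 0 or 5 or day 10 replicate 2 (0.052 to 0.125) and in 6 of the other alternatives, and without day 15 replicate 3 the difference was 0.94 (adjusted p = 0.056). At day 10 its call was lost without replicate 1 or 2 of day 0 or replicate 2 or 3 of day 10 (0.055 to 0.082).

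Of 16 tested genes in the text list of aminotransferases and asparaginases, 3, 2 and 3 were called higher and 0, 1 and 1 lower at the 3 days. The higher calls at day 5 include F511_00030 (1.32, SE 0.19, adjusted p = 0.0042). Its homology description is homeobox-leucine zipper protein ATHB-6, which is not an enzyme of this kind. L-asparaginase 1 (F511_02864), which frees ammonium from asparagine, rose from 4.02, 4.70 and 16.2 FPKM to 30.02, 32.6 and 31.3 at day 5 (2.03, SE 0.40, adjusted p = 0.012, held in every fit). Its day 10 call (1.60, adjusted p = 0.035) was lost without replicate 1 or 2 of day 0, replicate 1 or 2 of day 5, replicate 2 or 3 of day 10 or day 15 replicate 2 (0.052 to 0.133), on the 6 libraries compared (0.140) and without the filter (0.055), and its day 15 call (1.87, adjusted p = 0.012) without day 0 replicate 1 (0.052). Probable L-asparaginase 2 (F511_01351) went the other way, with means of 3.42 FPKM at day 0 and 0.75 at day 10. It was called lower at day 10 alone (-1.26, SE 0.34, adjusted p = 0.046). That call was lost without day 0 replicate 1 or 3 or any library of days 5, 10 or 15 (0.052 to 0.141). The fit on the 6 libraries compared (0.144) and the one on replicates 1 and 2 only (0.158) ended it too. Alanine--glyoxylate aminotransferase F511_00253 was called higher at each day, from 9.33 to 18.2 FPKM at day 0 to 36.01 to 70.8 later, a call lost at day 10 on the 6 libraries compared (0.051). Photorespiratory glutamate--glyoxylate aminotransferase F511_29550 fell from 565, 509 and 444 FPKM to 190.3, 110.4 and 65.4 at day 15 (-2.17, SE 0.49, adjusted p = 0.015). Leaving out day 0 replicate 1 or day 15 replicate 3 ended this call (0.058 and 0.053). Allantoinase (F511_08578), an enzyme of ureide breakdown, fell from 16.3, 26.5 and 22.5 FPKM to 6.46, 9.43 and 7.59 at day 15 (-1.36, SE 0.29, adjusted p = 0.013). Without day 0 replicate 2 its day 10 and day 15 calls were lost (0.084 and 0.052), and at day 10 also on the 6 libraries compared (0.092) and on replicates 1 and 2 only (0.053). No oligopeptide transporter (5 tested) or gene of the PII and glutamate receptor list (13 tested) was called at any day. Over the 96 genes, 22 of 33 calls were lost on leaving out 1 library and 10 held under every alternative.

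Differentially methylated regions were read from the authors' deposited table, which sets young against mature leaves. It ties 8 of its 2247 CG regions to 4 nitrogen genes, which is 3.101% of the 129 genes with a locus tag, beside 3.40% of all locus tags in the expression table. With 1 library per leaf age there is no replicate check, the coverage is unknown, and the p-values are those of the authors' deposited table with no adjustment stated. These leaves were not cultured, so the levels belong to other samples than the expression values.

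Of those 8 regions, 4 lie at the falling chloroplast GS gene F511_04119, at positions 367999 to 370799 of its scaffold. Downstream in the authors' deposited table means lower positions for this gene, so its start is taken as the upper end. In the authors' deposited table a region of 13 CG sites marked as exon, 278 to 578 bases inside that end, had a level of 70.1% in young and 24.3% in mature leaves (p = 0.0070). A second exon region of 5 sites near the lower end went from 76.6% to 48.0% (p = 0.016) in the authors' deposited table. The region of 7 sites across the upper end had 2.03% and 11.8% (p = 0.036), and the downstream region of 5 sites had 85.8% and 100% (p = 0.048), both from the authors' deposited table. The 2 regions wholly inside the gene were lower in mature leaves. The downstream region was higher, as was the region at the upper end. That last region is marked as exon too and lies almost wholly inside the gene, from 190 bases within that end to just past it.

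**Figure D5:**
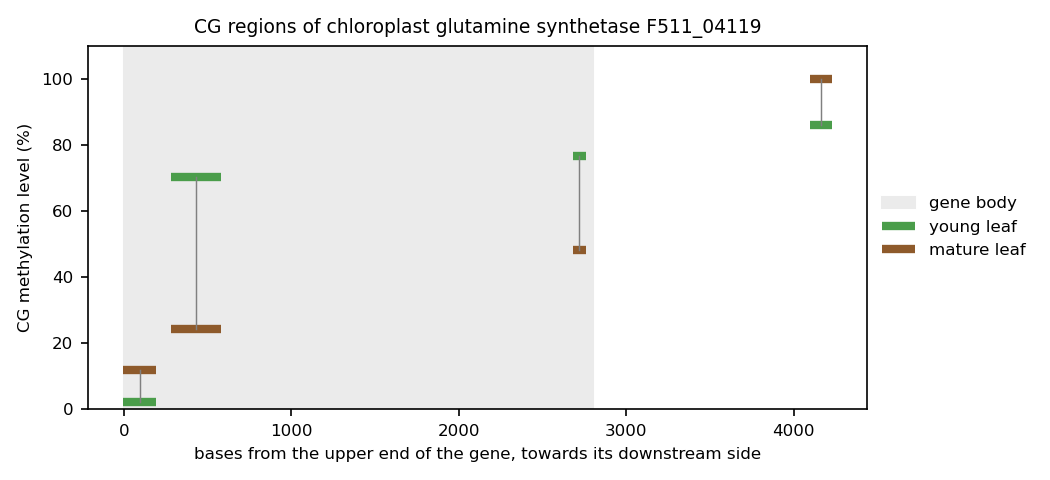
CG methylation level in percent (vertical axis) of the 4 regions that the authors' deposited table ties to F511_04119, by distance in bases from the upper end of the gene. Green bars are young and brown bars mature leaves (1 library each), bar length is the region's length and grey shading the gene body. The regions at 70.1% and 76.6% in young leaves are lower in mature leaves, and those at 2.03% and 85.8% are higher.

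The late-rising NRT3.1-like gene F511_00660 had 2 CG regions in the authors' deposited table. One across its start, marked as exon, had 46.0% in young and 66.7% in mature leaves. The other, downstream, had 13.4% and 0%, in the same authors' deposited table. NPF7.3-like F511_03073 had an exon region at 36.7% and 52.7% (p = 0.013) and NPF6.2-like F511_02553 a downstream region at 23.8% and 0% (p = 0.016), both in the authors' deposited table. In the CHG and CHH contexts the authors' deposited tables list 9 further regions at 5 nitrogen genes, with no levels used here. For CHG, 1.55% of the 129 nitrogen genes with a locus tag had a region, beside 1.04% of all locus tags. In the CHH tables named posi and neg the shares were 1.55% and 2.33%, beside 1.35% and 1.40%. The CHG and CHH tables head their columns BhB and BhS, names that match neither leaf label, so their comparison is not assigned to young and mature leaves. Among the 9 regions are 3 CHH regions each for F511_02553 and the NPF4.5-like gene F511_00243, the lowest p being 1.1e-13 for a region of 61 sites downstream of F511_02553. CHG regions are listed 1 each at F511_01687, an NPF gene, in coding sequence (11 sites) and downstream of F511_04119 (10 sites).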

How the data were processed

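The authors deposited FPKM values per gene for 12 leaf explant libraries, and tables of differentially methylated regions with a p-value per region. The CG table compares 1 young with 1 mature leaf library and gives each methylation level as a fraction, multiplied here by 100 (deposited by the authors). The CHG and CHH tables are headed BhB and BhS, which match no sample label. Per the submitters' processing notes HISAT, StringTie 1.0.4, Bowtie2 2.2.5 and BSMAP were used, with roles not stated. The genome build and strand setting are not given in the sources used here, and the 6 level columns of the CHG and CHH tables were not used. The depth is unknown, since low FPKM values did not recover whole reads.

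FPKM was transformed as log2(FPKM + 1), so fold changes of low genes are understated. Genes with at least 1 FPKM in 3 libraries (17288) were fitted with limma 3.58.1 (R 4.3.3) using 1 mean per day over 12 libraries, trended robust empirical Bayes and Benjamini-Hochberg adjustment over all of them. The method was also run on simulated data whose libraries varied independently, so that run cannot speak to the offset of replicate 3. Alternatives were other pseudocounts, filters, scaling, sample sets, a replicate block, fitting without trend and robust settings, no fold minimum and leaving out each library. The alternative without a fold minimum could not end a call, so holding under it carries no weight. Replicates are labelled biological. Replicate numbers name the libraries only.

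Members and lists were chosen with earlier results of these data known. The genes named were the most abundant of each role, up to 3 called higher and 3 called lower per role and comparison by smallest adjusted p, every tested gene of roles with 6 or fewer, those in a methylation table, and 1 called higher and 1 called lower per pathway list, leaving out regulator genes matched only by letters inside another protein's name, a step taken after seeing the data. Others (further GS, NPF and LHT1-like genes, TGA1-like, LBD37-like and asparaginase) were chosen after their values were seen, and the alternatives for pathway genes were run then too. Methylation was not tested.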

Additional observations from a re-analysis of the deposited data

How the results depend on the processing

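Over the alternatives no result reversed its direction. Counts of nitrogen genes called at day 5 ranged from 4 to 12 with 1 library left out, lowest without day 0 replicate 1, and the count was 17 on replicates 1 and 2 only. Among all tested genes, day 5 calls were 1142 in the main fit, 449 without day 0 replicate 1 and 2033 on replicates 1 and 2 only. For nitrogen genes at day 10 the range was 2 to 12, with 2 without day 0 replicate 1, 2 without day 0 replicate 2 and 3 without day 10 replicate 2, and only the 6 libraries compared gave 2. All-gene calls at day 10 were 777 in the main fit, 205, 301 and 300 without those libraries and 88 on the 6 libraries compared. At day 15 the range for nitrogen genes was 9 to 17, lowest without day 0 replicate 1. For the F test it was 2 to 15, with 2 and 3 without day 0 replicates 1 and 2. Over all tested genes, day 15 calls went from 1559 to 753 without day 0 replicate 1. The F test passed for 1525 genes in the main fit and for 201 and 277 without day 0 replicates 1 and 2. The count of nitrogen genes called stayed 0 between days 5 and 10 and between days 10 and 15. Same-numbered libraries counted as paired where every r of their deviations was over 0.1. This failed in each comparison with day 0 (lowest r -0.01, 0.04 and 0.09) and held between days 5 and 10 and days 10 and 15, where the fit with the replicate number as a block also called 0. Over all days r was -0.01 to 0.66 and in 11 of 18 cases a library correlated best with its own number, a hint from the data and not the design. Replicate 3 did so in every pair of days, whereas replicates 1 and 2 each failed to in several pairs, so the count leans on the offset of replicate 3. With the block, counts of nitrogen genes against day 0 were 13, 13 and 20 and 16 for the F test. Calls over all tested genes rose too, to 1500, 1116 and 1917 and 2770 for the F test. Without the block these were 1142, 777, 1559 and 1525. Of the 33 nitrogen calls, 0 were lost with the block. Genes gained were F511_36941 and F511_19067 (higher, all 3 days), F511_22747 (lower, days 5 and 15), BGI_novel_G001161 (higher, day 5), F511_09543 (higher, day 10), and F511_09226, F511_12859 and F511_18242 (higher, day 15), with adjusted p of 0.012 to 0.048. Of the 33 calls, 12 held under all 22 alternatives, and 10 were lost on the 6 libraries compared, 6 with rescaling and 5 on replicates 1 and 2 only. A p under 0.01 in the authors' deposited table left 2 of the 8 CG regions. Limits are 3 libraries per day, an unknown depth, replicate 3 standing apart, and 1 methylation library per leaf age.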
